A study of Mus musculus with 10 samples.

Results

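Glucocorticoid receptor (GR) peaks of fed mouse skeletal muscle that lay in a promoter and shared no base with a peak of lysine-specific demethylase 1 (LSD1) are described here across 8 peak lists. They were chosen by 2 values of the fed lists, the place of the GR peak and the absence of an LSD1 peak over it. A peak counted as a promoter peak when its midpoint fell between 1 kb before and 100 bp after the transcription start site (TSS) of a curated RefSeq transcript on GRCm38 (mm10). Of the 14108 GR fed peaks 3154 met the first condition, and 1021 of these met both. The 1021 peaks made up 7.24% of the GR fed peaks and 32.4% of the GR fed promoter peaks. The other 2133 GR fed promoter peaks shared bases with LSD1 fed and served as the closest comparison, called LSD1-shared promoters below. As a second comparison served the 6274 GR fed peaks outside promoters that shared no base with LSD1 fed.

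The chromatin came from limb skeletal muscle of C57BL/6J mice labelled 10 weeks old, whereas the text of the study gives another age. The mice were either fed or starved for 24 h and carried no labelled transgene or deletion. GR, LSD1, histone H3 monomethylated at lysine 9 (H3K9me1), dimethylated at lysine 9 (H3K9me2) and input chromatin were sequenced once per condition, 10 libraries in all. Each group is 1 library, so no replicate spread exists to judge a difference between conditions by, and no p-value is given. The methods of the study speak of several mice and repeats per condition, but whether the mice were pooled in a library is not stated in the sources used here. Whole muscle holds more cell types than myofibres. Each share is given with its exact (Clopper-Pearson) 95% confidence interval (CI) where it carries a comparison. Such an interval covers counting error only, because neighbouring peaks are not independent, and the depth of the libraries is unknown.

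GR is a nuclear receptor that enters the nucleus when it binds glucocorticoids, the adrenal hormones that rise in fasting. It binds DNA as a dimer at the glucocorticoid response element (GRE), a palindrome of a pair of short sites that face each other, and it also reaches chromatin through other factors or single sites. In muscle it is known for raising genes of protein breakdown and for restraining glucose use. LSD1 (Kdm1a) is a flavin-dependent demethylase that removes methyl groups from mono- and dimethylated lysines of histone H3, lysine 4 in corepressor complexes and lysine 9 in complexes with some nuclear receptors. H3K9me2 is a mark of silent chromatin, and H3K9me1 is its partly demethylated form. Promoters of widely expressed genes are mostly CpG islands, stretches rich in G, C and the CG dinucleotide.

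The label of the tissue was checked on marker genes. Of 12 myofibre markers, 10 had a GR fed peak within 5 kb of a TSS, against 1 of 31 markers of satellite cells, endothelium, fibroblasts, leukocytes, adipocytes, Schwann cells and smooth muscle. Over all 26180 annotated genes the share was 21.9%. Ttn, Ryr1 and Pygm, coding for titin, the calcium release channel and muscle glycogen phosphorylase, were the 3 myofibre markers with a GR promoter peak free of LSD1, and Acta1, Ckm and Mb had an LSD1-shared one. None of the 31 other markers had a GR fed promoter peak of either kind. The 8 lists held between 6624 (H3K9me2 starved) and 171402 (H3K9me2 fed) peaks. No peak was shorter than 117 bp in the fed and 110 bp in the starved list of GR, whereas the other 6 lists began between 49 and 55 bp. The labels carried 2 library codes. Both GR libraries shared one, both LSD1 libraries the other, and for each histone mark the code changed together with the condition, so that the effects of code and condition cannot be told apart for the marks.

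GRE-like sites were in very few of these promoters and GC-rich elements in most, as counted below. Sequences of 11 peaks are printed as examples of this contrast. They were read from GRCm38 (RefSeq), are written 5′ to 3′ on the strand of the gene, and were cut to bases outside annotated exons. The GRE was searched as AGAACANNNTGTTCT with at most 1 mismatch in the 12 fixed bases. It occurred in 5 of the 1021 windows of 300 bp around the midpoints, and in 4 of them it lay in sequence that can be printed, with the GRE-like site in capitals. These 4 peaks belonged to the lncRNA gene Gm31679 (chr12:69625709-69625812), to Lcn2, which codes for the secreted lipocalin 2 (chr2:32388244-32388338), to Car14, which codes for a membrane carbonic anhydrase (chr3:95904849-95904959), and to Plec, which codes for the cytoskeletal linker plectin (chr15:76208300-76208368). All 4 genes are on the minus strand.
Gm31679: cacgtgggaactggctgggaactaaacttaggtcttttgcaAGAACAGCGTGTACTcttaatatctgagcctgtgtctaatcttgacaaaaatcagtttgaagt
Lcn2: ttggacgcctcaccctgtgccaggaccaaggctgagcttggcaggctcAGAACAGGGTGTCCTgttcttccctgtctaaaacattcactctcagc
Car14: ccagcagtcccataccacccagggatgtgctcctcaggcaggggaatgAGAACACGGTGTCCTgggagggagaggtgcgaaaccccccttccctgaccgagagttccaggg
Plec: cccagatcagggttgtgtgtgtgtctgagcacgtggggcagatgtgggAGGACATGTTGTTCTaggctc

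The second set shows the sequence at the midpoint of promoters without such a site, with each match to 1 of the other searched motifs in capitals. Apart from Doc2b, its genes were picked as examples, not by a rule, and do not stand for all of these promoters. Among other peaks of high fold, 1700060C20Rik held only the E-box CAGCTG at its midpoint. Phyhd1, Syn2 and Scfd2 held none of the searched motifs there, and these stretches are not printed. Doc2b (chr11:75796615-75796764, minus strand) is the peak with the highest fold enrichment, and none of the searched motifs occurred in the printed stretch. Des (chr1:75360149-75360291, plus strand) codes for desmin, the intermediate filament protein of muscle, and holds GC boxes and the E-box CAGCTG. Hk2 (chr6:82774530-82774679, minus strand) codes for hexokinase 2 and holds GC boxes and a CCAAT-type site. Per3 (chr4:151044708-151044857, minus strand) codes for a clock repressor of the period family and holds 4 GC boxes and a CCAAT-type site. Mt2 (chr8:94172443-94172592, plus strand) codes for metallothionein 2 and holds an AP-1 type site.
Doc2b: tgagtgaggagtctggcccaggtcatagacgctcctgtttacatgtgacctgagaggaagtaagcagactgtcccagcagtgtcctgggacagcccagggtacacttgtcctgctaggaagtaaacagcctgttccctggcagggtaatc
Des: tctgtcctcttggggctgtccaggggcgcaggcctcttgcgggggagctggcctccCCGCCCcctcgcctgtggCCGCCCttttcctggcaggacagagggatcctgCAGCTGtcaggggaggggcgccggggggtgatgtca
Hk2: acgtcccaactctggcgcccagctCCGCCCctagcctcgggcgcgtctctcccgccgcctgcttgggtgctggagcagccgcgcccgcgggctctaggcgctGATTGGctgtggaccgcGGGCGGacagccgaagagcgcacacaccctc
Per3: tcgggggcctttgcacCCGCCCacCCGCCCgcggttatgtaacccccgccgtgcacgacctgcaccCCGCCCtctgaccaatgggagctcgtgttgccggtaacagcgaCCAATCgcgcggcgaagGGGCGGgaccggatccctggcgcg
Mt2: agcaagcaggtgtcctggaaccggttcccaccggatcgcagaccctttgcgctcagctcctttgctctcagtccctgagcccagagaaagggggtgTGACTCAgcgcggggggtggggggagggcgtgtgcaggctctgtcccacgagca
The remaining pair holds the core of the nuclear respiratory factor 1 (NRF1) motif, CGCATGCG, in capitals. Tdp1 (chr12:99884448-99884516, plus strand) codes for a DNA repair phosphodiesterase, and Retreg3 (chr11:101119889-101119961, minus strand) codes for a reticulophagy regulator. Both were chosen as examples after their values were seen.
Tdp1: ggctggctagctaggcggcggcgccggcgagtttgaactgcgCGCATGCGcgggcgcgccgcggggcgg
Retreg3: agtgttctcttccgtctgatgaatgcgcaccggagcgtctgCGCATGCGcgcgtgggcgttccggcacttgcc

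The values used to choose the peaks are given as a description. Fold enrichment over input, which the authors' peak caller gave for each peak, ranged from 2.33 to 7.73 in the 1021 promoters with a median of 3.01, beside a median of 3.06 in the LSD1-shared promoters and 3.30 in the GR peaks without LSD1 outside promoters. Only 54 of them reached a fold of 4 and 19 a fold of 5. Peaks were 117 to 2404 bp long with a median of 270.0 bp, against 349 bp in the LSD1-shared promoters. The part of peak length in sharing bases with LSD1 was not tested. A q-value (the estimated share of false calls at that threshold) of 0.01 or less was reached by 534 (52.3%) of these peaks and by 64.2% of the LSD1-shared ones. At the edges of the promoter window lay Il12a (a cytokine subunit), with its midpoint at -999 bp and a fold of 3.13, and Rnf168 (a ubiquitin ligase of the DNA damage response) and Pdcd2l, both at 99 bp, with folds of 2.78 and 2.99. Just outside lay Irgm1, at -1002 bp with a fold of 3.11, and Csnk1a1, at 102 bp with 2.96. The peak of Snapc3, a subunit of a complex that activates small nuclear RNA genes, touched an LSD1 fed peak without sharing a base (GR fold 2.79). That of Nhp2, a small nucleolar ribonucleoprotein, lay 1 bp from an LSD1 fed peak (2.78). The peaks of Crkl (3.11) and Clpp (3.48) shared 1 base with LSD1 fed and were left out by that base.

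The 10 peaks with the highest fold belonged to genes of varied function. Doc2b, a calcium sensor of vesicle fusion, had a GR fold of 7.73 in fed and 8.37 in starved muscle. Syn2, a synaptic vesicle protein, had 7.30 and 6.41. Pnpla7, a lysophospholipase, had 6.34 and 5.05. These 3 and Dpf2, a subunit of a chromatin remodelling complex (5.73 and 5.28), had a fold above 5 in both libraries. Phyhd1, a dioxygenase family member, had 7.41 fed and 3.81 starved, and the lncRNA gene 1700060C20Rik had 7.57 and 3.94. Kcna5, a voltage-gated potassium channel, had a fold of 5.85 fed and 3.45 starved, and Kcnab3, a beta subunit of such channels, had 5.42 and 2.94. Scfd2, a vesicle trafficking protein, had 6.04 and 4.56. The tenth, 2310002L09Rik, had 5.79 and 3.27. Each of these 10 peaks was called in both GR lists.

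Most of the 1021 peaks lay close to the TSS. Their midpoint was within 100 bp of it on either side in 459 (45%), more than 100 and up to 300 bp upstream in 333 (32.6%) and farther upstream in 229 (22.4%; CI 19.9 to 25.1). Of the LSD1-shared promoters 50.4%, 31.4% and 18.3% (CI 16.7 to 20.0) lay in these positions. The nearest gene was protein coding for 931 peaks, a lncRNA gene for 81, a microRNA gene for 8 and the RNA gene of RNase MRP for 1. A peak lay in the promoters of several genes at once in 105 cases (10.3%), against 14.1% of the LSD1-shared promoters.

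**Figure D1:**
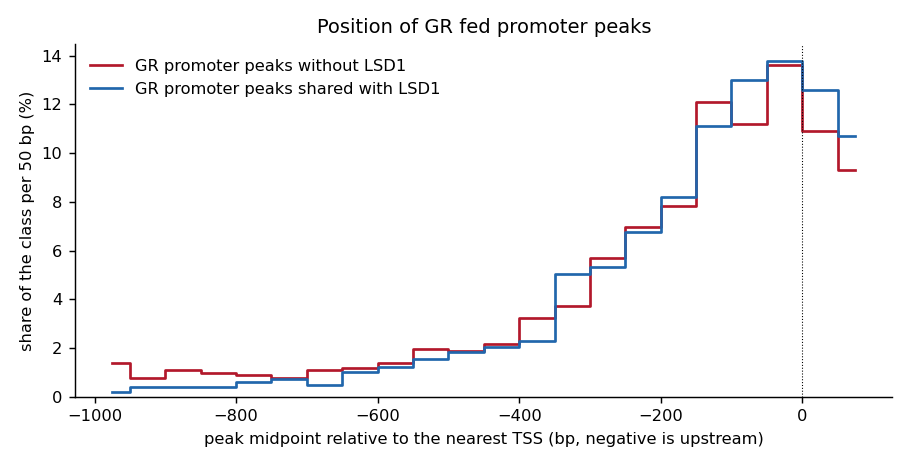
Position of the peak midpoint relative to the nearest TSS (x axis, bp, negative values upstream) as the share of each class per 50 bp (y axis, %), for the 1021 GR promoter peaks without LSD1 and the 2133 LSD1-shared ones. Both curves peak in the 50 bp just upstream of the TSS, at 13.6% and 13.8%, and the curve of the peaks without LSD1 lies higher in the 200 bp farthest upstream.

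The next question was whether these promoters were still called for GR after starvation. The GR starved list held 37783 peaks, against 14108 in the fed list. A GR starved peak shared at least 1 base with 656 of the 1021 peaks, 64.3% (CI 61.2 to 67.2). This was close to the 65.8% of all GR fed peaks, below the 86.6% (CI 85.1 to 88.1) of the LSD1-shared promoters and above the 47.7% (CI 46.5 to 49) of the GR peaks without LSD1 outside promoters. The shares were also taken by peak length and by fold, and the part of either in the difference from LSD1-shared promoters was not tested. Among peaks under 200 bp the shares were 59.2% without and 80.0% with LSD1, among those of intermediate length 65.2% and 84.3%, and among the longest 68.7% and 91.8%. Among folds from 2.5 to under 3 they were 62.0% and 81.2%, and among folds from 3 to under 4 they were 64.2% and 89.6%. Among the 54 and 163 peaks with a fold of 4 or more they were 85.2% (CI 72.9 to 93.4) and 95.7% (CI 91.4 to 98.3), with overlapping intervals. By position, 65.1% of the peaks within 100 bp of the TSS and 57.6% (CI 51.0 to 64.1) of those more than 300 bp upstream were called, where LSD1-shared promoters had 85.1% and 90.3%. Peaks in the promoters of several genes were called in 77.1% (CI 67.9 to 84.8), those of 1 gene in 62.8% (CI 59.6 to 65.9). In windows of equal length, 300 bp around each midpoint, 63.5% of the promoters without LSD1 and 84.9% of the LSD1-shared ones met a GR starved peak, beside 24.5% of all 31603 annotated TSS windows. When every list was held to a q-value of 0.01 or less, which also changes which peaks count as free of LSD1, the shares were 55.2% (CI 52.2 to 58.0) and 68.5% (CI 65.0 to 71.8).

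**Figure D2:**
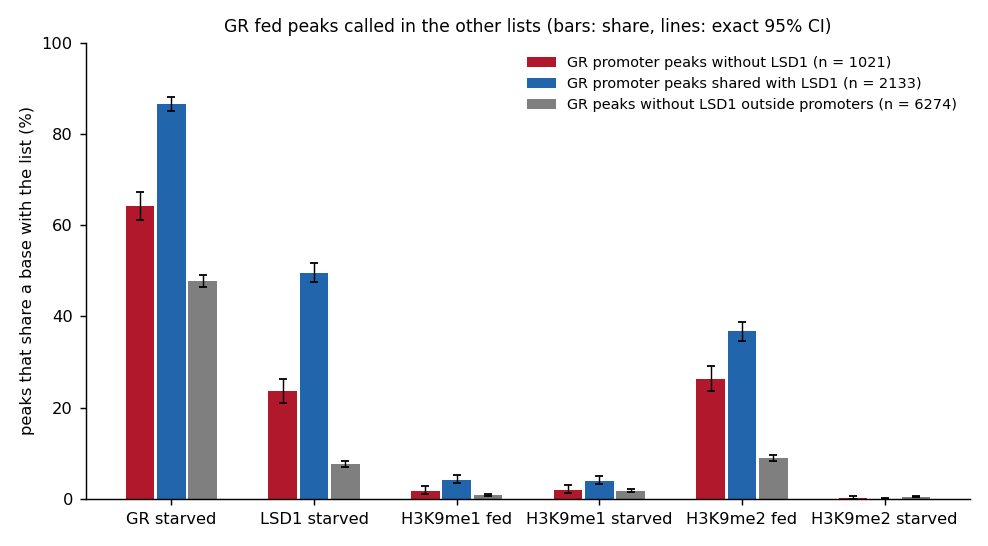
Share of GR fed peaks (y axis, %) that had at least 1 base in common with a peak of each other list (x axis), for GR promoter peaks without LSD1 (n = 1021), LSD1-shared promoters (n = 2133) and GR peaks without LSD1 outside promoters (n = 6274). Bars give the share and lines the exact 95% interval, and in GR starved, LSD1 starved and H3K9me2 fed the promoters without LSD1 stand between the other classes.

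Where both GR peaks existed, the fold was mostly a little lower in the starved library. Of the 656 pairs 519 (79.1%) had the lower fold in starved muscle, with a median ratio of starved to fed of 0.907 (range 0.492 to 1.97). The LSD1-shared promoters had a median ratio of 0.911. The starved peak was longer in 461 of the 656 pairs, and the fold of a broad peak is an average over its length, so a fold over a longer peak is not the same measure. The 3 next highest starved folds after Doc2b and Syn2 were above their fed folds. Tspyl2, a nucleosome assembly family member on X, had 4.84 fed and 6.10 starved. Retreg1, a receptor for the autophagy of endoplasmic reticulum, had 2.97 and 5.85, the largest ratio of all 656 pairs. Maff, a small basic leucine zipper factor, had 3.84 and 5.38. These are values of 1 library each. Mt2 had 3.20 and 4.84, with a peak of 319 bp fed and 1940 bp starved.

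**Figure D3:**
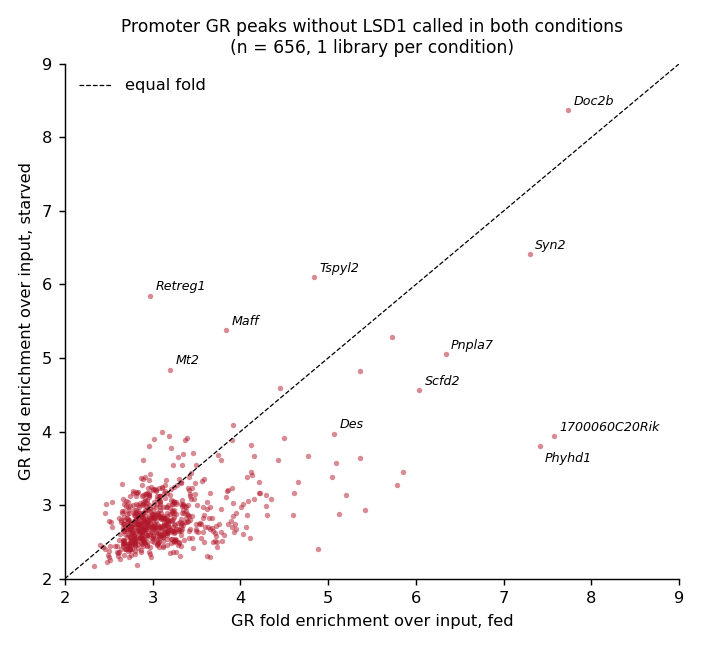
GR fold enrichment over input in fed (x axis) and starved (y axis) muscle for the 656 promoter peaks without LSD1 called in both GR lists, 1 point per fed peak and 1 library per condition, with the dashed line at equal fold. Most points (519) lie below the line, Retreg1, Maff, Mt2 and Tspyl2 lie above it, and Phyhd1 and 1700060C20Rik have a starved fold below 4.

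No GR starved peak met the other 365 peaks. Their fed folds had a median of 2.99, beside 3.03 for the peaks that were met, and their median length was 260.0 bp beside 274 bp. The 5 strongest of them were the lncRNA genes Gm30173 (fed fold 5.37), Plekhd1os (5.32) and Gm31679 (4.44), Grhpr (4.49), which codes for glyoxylate reductase, and Il1rap (4.31), which codes for the shared subunit of interleukin-1 family receptors. A missing peak does not show that GR was absent, since a peak just under the caller's threshold is not listed.

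LSD1 was called at some of these promoters after starvation. The deposited LSD1 starved list holds 66332 peaks, against 16616 in the fed list, whereas the text of the study describes far fewer peaks after starvation than in fed muscle. The counts here rest on the list as deposited. An LSD1 starved peak shared bases with 241 of the 1021 peaks, 23.6% (CI 21 to 26.3), beside 21.4% of all GR fed peaks, 49.6% (CI 47.5 to 51.7) of the LSD1-shared promoters and 7.70% of the GR peaks without LSD1 outside promoters. In windows of 300 bp the share was 23.5%, against 12.5% of all TSS windows. Most of these LSD1 peaks were weak, with a median fold of 3.44 and a median q-value of 0.0445, and only 39 had a q-value of 0.01 or less. The strongest was at Dtwd1, coding for a tRNA modifying enzyme, with an LSD1 starved fold of 4.73. It was followed by Prelid3b, a lipid transfer protein of mitochondria, with 4.57. The divergent histone genes H2bc21 and H2ac20 shared a peak with 4.54, Kcnj11, the pore of the ATP-sensitive potassium channel, had 4.47, and Tex30 had 4.42. Among the peaks kept in GR starved, 193 of 656 (29.4%; CI 26.0 to 33.1) had LSD1 starved, against 48 of 365 (13.2%; CI 9.86 to 17.1) of the others. The LSD1-shared promoters went the same way, with LSD1 starved at 967 of the 1848 kept in GR starved and at 1058 of all 2133. Both starved lists thus held 18.9% of the 1021 promoters, GR starved alone 45.3%, LSD1 starved alone 4.70% and neither 31.0%. Of the LSD1-shared promoters 45.3% were in both and 9.10% in neither. In no other list at all were 248 promoters (24.3%; CI 21.7 to 27). By comparison, 136 of the 2133 LSD1-shared promoters (6.38%) were in no list beyond GR fed and LSD1 fed. Neither this share nor the split between both starved lists was counted over all GR fed peaks. They can therefore not be called particular to these promoters.

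The repressive mark H3K9me2 was called in fed muscle at 268 of the 1021 promoters, 26.2% (CI 23.6 to 29.1). Of all GR fed peaks 16.5% had it, of the LSD1-shared promoters 36.7% (CI 34.7 to 38.8), and of the GR peaks without LSD1 outside promoters 8.91%. The 300 bp windows gave 25.9% for the promoters without LSD1, 32.7% for the LSD1-shared ones and 13.3% for all TSS windows. At a q-value of 0.01 or less in every list the shares were 9.79% (CI 8.15 to 11.6) and 11.1% (CI 8.91 to 13.6), with overlapping intervals. H3K9me2 peaks that reached this q-value on their own met 6.56% of the 1021 promoters and 9.94% of the LSD1-shared ones. The highest H3K9me2 fed folds were 5.02 at Cav1, coding for caveolin 1, 4.99 at Plpp6, a lipid phosphatase, and 4.51 at Retreg1. In the starved list H3K9me2 was called at 1 promoter (0.0979%), that of Wdr74, a ribosome assembly factor, with a fold of 3.58, beside 0.766% of all GR fed peaks. The H3K9me2 starved list was the shortest of the 8, and its library code differs from that of the fed one.

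H3K9me1 was rare at these promoters. It was called at 18 (1.76%; CI 1.05 to 2.77) in fed and at 20 (1.96%; CI 1.20 to 3.01) in starved muscle, beside 2.27% and 2.80% of all GR fed peaks and 4.22% and 4.03% of the LSD1-shared promoters. The strongest fed peaks were at Pde4b (5.54), a phosphodiesterase that breaks down cyclic AMP, at Pfkfb4 (5.38), an enzyme that sets the level of fructose 2,6-bisphosphate, and at Ube2f (4.45), a NEDD8 conjugating enzyme. In starved muscle they were at Ppp2r5c (5.29), a regulatory subunit of protein phosphatase 2A, at Ampd3 (4.43), AMP deaminase 3, and at Mir8111 (4.38). These 6 H3K9me1 peaks were 49 to 56 bp long.

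The base composition placed these promoters between the LSD1-shared ones and promoters in general. A 300 bp window was called CpG island-like when at least 50% of its bases were G or C and the ratio of observed to expected CG was at least 0.6. This held for 654 of the 1021 windows, 64.1% (CI 61.0 to 67.0), for 78.4% (CI 76.6 to 80.1) of the LSD1-shared promoters, 41.3% of all TSS windows and 4.89% of the GR peaks without LSD1 outside promoters. The median GC content was 60.7%, 64.7%, 55.7% and 49.7% in that order. CpG island-like windows were called more often in 3 of the lists. Among them 68.0% had GR starved, 29.1% LSD1 starved and 31.0% H3K9me2 fed, against 57.5%, 13.9% and 17.7% of the windows that were not CpG island-like. Among LSD1-shared promoters GR starved was called at 86.4% and 87.4%, above the promoters without LSD1 in both kinds of window. The part of base composition in the difference was not tested. The share of CpG island-like windows fell with distance, from 77.6% within 100 bp of the TSS to 37.6% farther than 300 bp upstream.

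GRE-like sequences within 1 mismatch were scarce and GC-rich promoter elements common. This search leaves out more divergent sites, such as some Ddit4 enhancer sites that the study describes as departing from the consensus. With 2 mismatches allowed, 2.64% of the windows held a site. The share was then 1.31% of LSD1-shared promoters, 1.61% of all TSS windows and 12.9% of the GR peaks without LSD1 outside promoters. With at most 1 mismatch the GRE was found in 5 of 1021 windows, 0.490% (CI 0.159 to 1.14), against 0.141% (CI 0.0290 to 0.410) of LSD1-shared promoters, 0.139% of all TSS windows and 3.03% (CI 2.62 to 3.48) of the GR peaks without LSD1 outside promoters, of which 6273 lay on assembled chromosomes and were read. No window held it without a mismatch, which allows a share of up to 0.361%. The single GRE arm AGAACA was in 14% (CI 11.9 to 16.3), below the 17% of all TSS windows and the 35.1% of peaks outside promoters. In the fed list the 5 promoters with a GRE-like site had folds of 4.44 (Gm31679), 3.86 (Lcn2), 3.85 (Car14), 3.56 (Zfp946) and 3.13 (Plec), all above the median of the 1021. Lcn2, Car14 and Plec were also called in GR starved, with 3.21, 3.19 and 2.72, and Gm31679 and Zfp946 were not. None of the 5 had an LSD1 starved or an H3K9me2 fed peak, beside 23.6% and 26.2% of all 1021. With 5 peaks either interval reaches 52.2%.

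The GC box GGGCGG, bound by factors of the SP and KLF families, was in 58.4% (CI 55.3 to 61.4) of the windows, against 71.1% of LSD1-shared promoters and 43.2% of all TSS windows. CCGGAAG, a core of ETS factors, was in 16.1% and 15.6%, beside 10.4% of all TSS windows. CCAATC, of the NFY factor, was in 19.8% and 21.8%, beside 17.1%. AAGATGGC (YY1) was in 4.90% and 4.13%, beside 2.85%, and TCACGTG (USF) in 6.56% and 5.77%, beside 4.13%. The NRF1 core was in 3.13% (CI 2.15 to 4.40) and 4.08%, beside 2.15%. For these elements other than the GC box the intervals of both kinds of GR promoter overlapped. TATAAA was in 7.93% (CI 6.35 to 9.76) of the promoters without LSD1 and in 4.17% (CI 3.36 to 5.11) of the LSD1-shared ones, beside 12.3% of all TSS windows. TGANTCA (AP-1) was in 5.29% (CI 4.00 to 6.84) and 3.61% (CI 2.86 to 4.49), beside 7.21%, and TAAAAATA (MEF2) in 2.45% (CI 1.59 to 3.59) and 1.22% (CI 0.798 to 1.78), beside 2.17%, both with overlapping intervals. CAGCTG, bound by MyoD, was in 18.5% and 16.6%, beside 16.1%. TGACGTCA (CRE) was in 2.45% and 2.48%, CTCGCGAG in 1.76% and 2.02%, and ACTACAA (ZNF143) in 3.33% and 4.41%. Both strands were searched and matches may overlap each other. All TSS windows, here and for base composition, ran from 250 bp before to 50 bp after the TSS, whereas the other windows followed the peak midpoint. Windows of midpoints more than 300 bp upstream, 22.4% without LSD1 and 18.3% of LSD1-shared promoters, did not reach the TSS. The part of window position in these differences was not tested. A match is a stretch of letters and was not tested as a binding site.

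**Figure D4:**
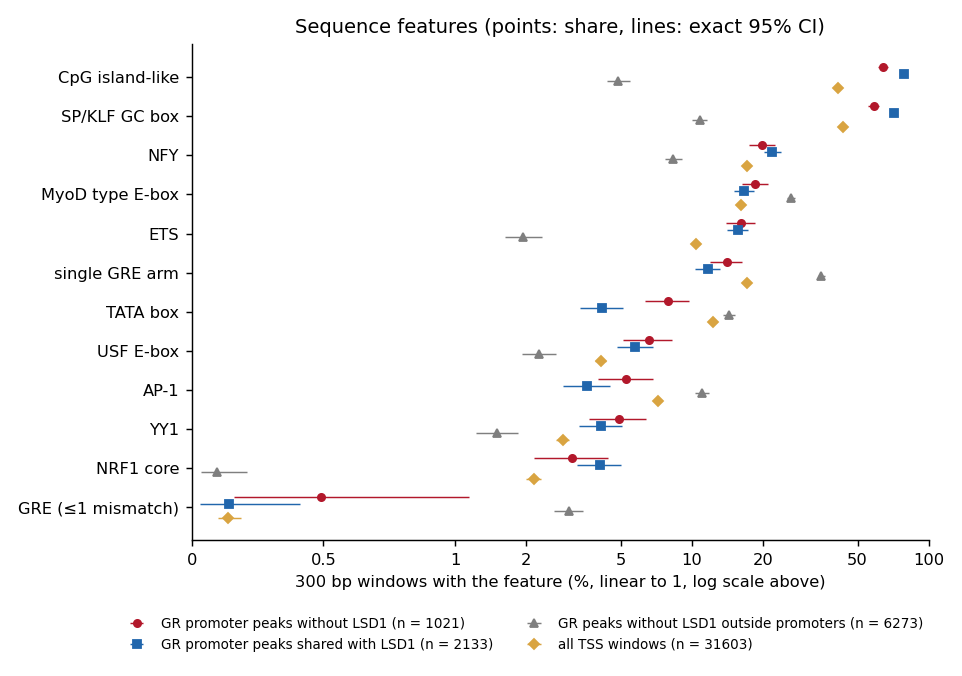
Share of 300 bp windows (x axis, %, linear up to 1 and logarithmic above) with each sequence feature (y axis), for GR promoter peaks without LSD1 (n = 1021), LSD1-shared promoters (n = 2133), GR peaks without LSD1 outside promoters (n = 6273) and all TSS windows (n = 31603). Points give the share and lines the exact 95% interval, and peaks outside promoters hold GRE-like sequences (3.03%) and the single GRE arm (35.1%) more often than either kind of promoter.

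LSD1 fed, a list used to choose these peaks, lay within 1 kb of a minority of them without overlapping. The share of all TSS at such distances was not counted. The nearest LSD1 fed peak lay within 100 bp of 137 of the 1021 peaks (13.4%) and within 1 kb of 323 (31.6%; CI 28.8 to 34.6), and the median distance was 10636 bp. Of the 323, 67.5% (CI 62.1 to 72.6) were called in GR starved and 26.6% (CI 21.9 to 31.8) in LSD1 starved. Of the 698 without LSD1 within 1 kb, 62.8% (CI 59.0 to 66.3) and 22.2% (CI 19.2 to 25.5) were, so the intervals overlapped. Of the 1015 genes nearest to these peaks, 721 (71.0%) had an LSD1 fed peak within 30 kb of a TSS, beside 49.7% of all annotated genes. Of the same 1015 genes 563 (55.5%) had another GR fed peak in that range, beside 41.0% of all annotated genes with any GR fed peak there, and 226 (22.3%) had neither. Because peak lengths differ, 57 (5.58%) of the 300 bp windows around the midpoints met an LSD1 fed peak although the GR peak itself did not. All TSS windows, which were not chosen to be free of LSD1, met one in 20.8%.

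By function, 1119 of the 26180 annotated genes (4.27%) had such a peak in a promoter, 2416 (9.23%) had an LSD1-shared one, and 32 had both. Among the 21000 protein-coding genes, which make up most of the lists, these shares were 4.83% and 10.5%. Counts for 37 lists of genes are given below beside these shares, and no list was tested. Of all 1021 peaks 64.3% were called in GR starved, 23.6% in LSD1 starved and 26.2% in H3K9me2 fed. LSD1 fed lay within 1 kb of 31.6% of them. Most lists hold few peaks, and their counts stand beside these shares without a test. Expression was not measured here, and its part in these counts was not tested. Where 1 or both kinds of peak were present in a promoter, the kind without LSD1 was present in 31.9% of genes.

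Of 39 genes of glycolysis and glycogen metabolism, 8 (20.5%) had a GR promoter peak without LSD1 and 9 an LSD1-shared one. Hk2, which phosphorylates glucose, had a GR fold of 4.13 fed and 3.41 starved, and Gaa, the lysosomal glucosidase, 4.01 and 2.98. Ppp1r3a, which targets a phosphatase to glycogen, had 3.73 fed and no GR starved peak, and Pfkm, muscle phosphofructokinase, 3.23 and 3.01. An LSD1 fed peak lay within 1 kb of 5 of these 8. Of 43 genes of the tricarboxylic acid cycle and fatty acid oxidation, 5 (11.6%) had such a peak and 16 (37.2%) an LSD1-shared one. They included Pdhx of the pyruvate dehydrogenase complex (3.47 fed, 3.08 starved) and Idh3a (3.26, 2.73). Mdh2 shared a peak with its divergent neighbour Styxl1 (3.00, 2.55). None of these 5 had LSD1 fed within 1 kb. Of the genes with either kind of peak, 47.1% of the glycolysis list and 23.8% of this list had one free of LSD1, beside 31.9% of all genes.

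Of 84 genes of the respiratory chain and ATP synthase, 10 (11.9%) had a peak without LSD1 and 19 a shared one. Uqcrc2 of complex III had 3.34 fed and 3.07 starved, Cox7a1, the muscle form of a cytochrome oxidase subunit, 3.31 and 2.77, Atp5k 3.16 and 2.54, and Atp5g1 2.99 and 2.71. Mitochondrial ribosomal proteins had 8 of 78 (10.3%), 7 of them called in GR starved, with fed folds from 2.46 to 3.08. Mrps6 shared its peak with Slc5a3 (3.08), Mrpl15 had 3.00, Mrpl55 shared a peak with 2610507I01Rik (2.96), and Mrps31 had 2.93. Of 59 genes of respiratory chain assembly and mitochondrial import, 4 (6.78%) had such a peak, Timm50 (3.10), Tomm34 (2.98), Uqcc2 (2.89) and Cox10 (2.75), and only that of Uqcc2 was called in GR starved. The 3 of 38 genes of mitochondrial gene expression, Tsfm (3.14), Polg (2.99) and Mtrf1l (2.82), had none in GR starved.

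Among 56 sarcomere genes 5 (8.93%) had a peak without LSD1 and 19 (33.9%) a shared one. Des had 5.07 fed and 3.97 starved, Ttn 2.96 and 3.16, and Capzb, an actin capping protein, 2.72 and 2.66, whereas Myl1, a fast myosin light chain (3.45), was not called in GR starved. All 5 had LSD1 fed within 1 kb, at 27 bp for Myl1 and 484 bp for Des. Of 34 genes of excitation-contraction coupling, 5 (14.7%) had such a peak. Kcnj11 had 3.75 and 3.68, Clcn1, the muscle chloride channel, 3.51 and 3.00, Casq2, a calcium buffer of the sarcoplasmic reticulum, 3.18 and 2.65, and Ryr1 2.74 and 3.12. Of the sarcomere genes with either kind of peak 21.7% had one free of LSD1, and of the excitation-contraction genes 35.7%.

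Classic GR target genes, a list of 51 genes known from other work, had 9 (17.6%) with a peak without LSD1 and 26 (51.0%) with a shared one, and 2 had both. Besides Lcn2 and Mt2, Ampd3 had 3.42 fed and 2.65 starved and Sesn1, a stress protein that restrains mTOR, 3.24 and 3.05. LSD1 fed lay within 1 kb of 6 of the 9. Ampd3 had a second such peak at another TSS, with a fold of 2.99 and no GR starved peak. Nr3c1, the gene of GR itself, had 2.89 and 2.68, with LSD1 fed 133 bp away. The other 4 of the 9 genes were Sgk1 (3.02), Cdkn1a (2.99), Foxo1 (2.83) and Lpin1 (3.00), of which Lpin1 alone was not called in GR starved. These 4 were named after their values were seen. Nr3c1 was also 1 of 5 nuclear receptors of 49 (10.2%), among them Rxrg (3.27, 2.36) and Nr1h2 (3.04), which had no GR starved peak. Of 27 clock genes 6 (22.2%) had a peak without LSD1 and 11 (40.7%) a shared one, and all 6 were called in GR starved. Ciart, a repressor of CLOCK and BMAL1, had 4.09 and 3.06, Csnk1d, a kinase of the period proteins, 3.66 and 2.29, Per3 3.24 and 2.62, and Hlf, a clock output factor, 3.10 and 2.60. None of the 6 was called in LSD1 starved or H3K9me2 fed, beside 23.6% and 26.2% of all 1021 peaks, and 6 peaks are too few to tell these apart.

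Of 62 genes of insulin, IGF1 and mTOR signalling 11 (17.7%) had a peak without LSD1 and 21 a shared one. Tsc2, an inhibitor of mTOR complex 1, had 3.86 and Deptor, another mTOR inhibitor, 3.50, both with no GR starved peak, whereas Akt2, the insulin-regulated kinase, had 3.59 fed and 3.35 starved. Of 55 genes of NF-kB and cytokine signalling 3 (5.45%) had such a peak, against 13 with a shared one. Tlr4, the receptor for lipopolysaccharide, had 3.29 and 2.46, Il1r1 2.96 and 2.86, and Socs3, a feedback inhibitor of cytokine signals, 2.94 and 3.07.

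**Figure D5:**
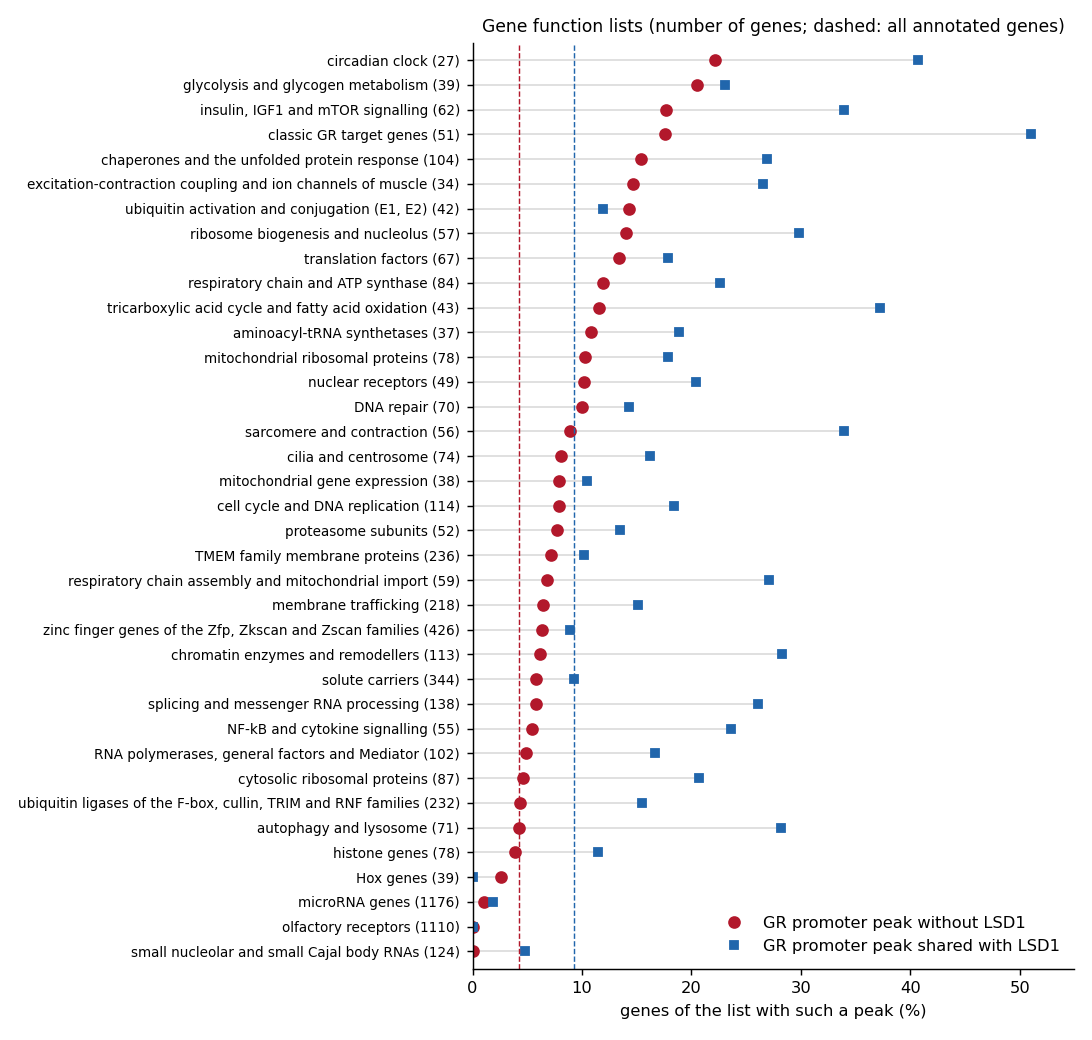
Share of the genes of each function list (x axis, %) with a GR promoter peak without LSD1 and with an LSD1-shared one, for the 37 lists (y axis, number of genes in brackets). Dashed lines mark the shares of all annotated genes, 4.27% and 9.23%. For protein-coding genes alone the shares were 4.83% and 10.5%. Clock (22.2%) and glycolysis genes (20.5%) stand highest for peaks without LSD1, and classic GR targets (51.0%) for shared ones.

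Genes of protein turnover differed from list to list. Of 42 ubiquitin activating and conjugating enzymes 6 (14.3%) had a peak without LSD1, all 6 called in GR starved, and 5 a shared one. Ube2j2 had 3.25 and 2.84, Ube2d3 3.02 and 2.5, and Ube2t 3.00 and 2.84. Ubiquitin ligases of the F-box, cullin, TRIM and RNF families had 10 of 232 (4.31%), near the share of all genes, and 36 with a shared peak. Rnf31, of the linear ubiquitin ligase complex, shared a peak of 4.45 fed and 4.59 starved with Psme2, a proteasome activator. Fbxo11 had 3.52 and 2.64, and Trim2 (3.33) had no GR starved peak. Proteasome genes had 4 of 52 (7.69%). Of 71 autophagy and lysosome genes only 3 (4.23%) had a peak without LSD1 but 20 (28.2%) a shared one. Atp6v0d1 shared its peak with Gm38250 (2.97, 2.76), Atg101 had 2.85 and 2.89, and Atg3, whose peak lies also in the promoter of Slc35a5, had 2.87 fed and no GR starved peak. Chaperones and the unfolded protein response had 16 of 104 genes (15.4%), with 13 of their 15 peaks called in GR starved. Dnajb4 had 3.48 and 3.30, Cct4 of the chaperonin 3.36 and 2.53, and Atf4, the main factor of the integrated stress response, 3.35 and 3.02, while Dnajc2 and Psmc2 shared a peak of 3.38 and 2.83.

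Genes that serve gene expression likewise had shares from 3.85% to 14%. Translation factors had 9 of 67 (13.4%), among them 5 subunits of eIF3, of which Eif3f (3.37) was called in GR starved and Eif3m, Eif3b and Eif3h (2.94, 2.83 and 2.82) were not. Ribosome biogenesis had 8 of 57 (14%), led by Dkc1 (3.81) and Rrp15 (3.30), both without GR starved, and Nop58 (3.20 fed, 2.88 starved). Aminoacyl-tRNA synthetases had 4 of 37 (10.8%), among them Aars2 and Yars2 of mitochondria (2.94 and 2.88). Cytosolic ribosomal proteins had 4 of 87 (4.60%), against 18 with a shared peak. Splicing and messenger RNA processing had 8 of 138 (5.80%) against 36 shared, with Cpsf3 at 3.50 and 3.55. RNA polymerases, general factors and Mediator had 5 of 102 (4.90%), with Med30 at 3.92 and 4.09. Chromatin enzymes had 7 of 113 (6.19%) against 32 shared (28.3%), among them Kdm4b, an H3K9 demethylase (3.81 and 2.60), Hdac1 (3.42 and 2.86), Hdac2 (3.09, no GR starved peak) and Setd7 (3.03 and 2.75). Zinc finger genes of the Zfp, Zkscan and Zscan families had 27 of 426 (6.34%) and 38 (8.92%) with a shared peak. Zfp410, an activator of a chromatin remodeller gene, was the strongest of them (5.2 and 3.14). Histone genes had 3 of 78 (3.85%).

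In the remaining lists the shares lay between 0 and 10.0%. DNA repair had 7 of 70 (10.0%), with Xrcc6, a subunit of Ku, at 3.44 fed and 3.09 starved. Cell cycle and DNA replication had 9 of 114 (7.89%), of which 3 were called in GR starved, beside 64.3% of all 1021 peaks. Among the 3 was Ccnd3, cyclin D3 (3.86 and 2.74), whereas Plk4 (3.47), Mcm8 (3.32) and Cdk16 (3.26) were not called. Cilia and centrosome had 6 of 74 (8.11%), membrane trafficking 14 of 218 (6.42%), TMEM proteins 17 of 236 (7.20%) and solute carriers 20 of 344 (5.81%). Slc27a1, a fatty acid transporter, had 3.48 and 3.15, and Slc25a34, a mitochondrial carrier, 3.91 and 3.24. MicroRNA genes had 12 of 1176 (1.02%), led by Mir219c (3.69 and 2.5). Of 39 Hox genes 1 had such a peak, Hoxc10 (2.89 and 2.79), of 1110 olfactory receptors 1, Olfr1331 (4.66 and 3.32), and of 124 small nucleolar and Cajal body RNAs none, where 6 had a shared one.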

How the data were processed

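The authors sequenced 10 ChIP and input libraries. Per their methods, single-end reads were aligned with Bowtie to mm10, uniquely mapped reads were kept, reads were filtered with a human (not mouse) blacklist, and broad peaks were called per library with MACS2 against input. bcl2fastq 2.20.0.422 is named in the submitters' processing notes. Each of the 8 deposited lists gave fold enrichment over input, which is a ratio, and the p-value and q-value as −log10. Neither the p-value nor the score that the authors deposited beside them entered a result. The methods state a false discovery rate of 0.01, yet the deposited q-values reach 0.0998, and the LSD1 starved list holds far more peaks than the study's text gives. Input chromatin has no list of its own here.

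Midpoints were placed relative to 31603 TSS of 45756 curated RefSeq transcripts (NM_ or NR_) of 26180 genes on GRCm38. Peaks counted as called in another list when at least 1 base was shared. Motifs and base composition were counted in 300 bp around each midpoint and from 250 bp before to 50 bp after every TSS. Python 3.11.15, pandas 2.3.3, scipy 1.17.1 and pysam 0.24.0 were used. Overlaps were tested on simulated intervals against bedtools 2.31.1 and motif searches on planted motifs. The members, gene lists, motifs and alternatives were chosen with earlier results of these data known. Genes were named by rule: the 10 highest GR fed folds with under 50% soft-masked bases, up to 4 genes per function list by GR fed fold, the 5 highest folds with a GRE-like site, the 5 highest in LSD1 starved and in GR starved, the 5 highest without GR starved, the 3 highest in each histone list, and peaks at the edges of the rule. Of these, not every gene is printed, and some are not reported here.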

Additional observations from a re-analysis of the deposited data

Results flagged for a closer look

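The share of these promoters called for H3K9me2 was far lower in the starved than in the fed list, and that for H3K9me1 was nearly the same. H3K9me1 was called at 18 promoters fed and 20 starved, with overlapping intervals (CI 1.05 to 2.77 and 1.20 to 3.01). For H3K9me1 the share was higher by 0.196 percentage points in starved muscle (1.76% fed, 1.96% starved), and for H3K9me2 the starved minus fed difference was -26.2 percentage points (26.2% fed, 0.0979% starved). Each list came from 1 library, so whether the marks differ was not tested. Over all GR fed peaks H3K9me1 was called at 2.27% fed and 2.80% starved, and H3K9me2 at 16.5% fed and 0.766% starved. The library code changed with the condition for both marks. The H3K9me2 lists themselves held 171402 peaks fed and 6624 starved, and the H3K9me1 lists 14178 fed and 38023 starved. The part of library code and list size in these values was not tested.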

How the results depend on the processing

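Of 50 alternative values, 28 stayed within the 95% interval of the value reported (or within 1.5 times of the count), and 22 did not. Each share stayed within it when promoters with LSD1 fed within 1 kb were left out. The number of promoters fell to 54 with a GR fed fold of at least 4 and rose to 2044 when an LSD1 fed peak needed a q-value of at most 0.01 to remove a GR peak, so which promoters count as free of LSD1 depends on weak LSD1 peaks. When every list was held to a q-value of at most 0.01, the share in GR starved was 55.2%, in LSD1 starved 7.13%, in H3K9me1 fed 0.945%, in H3K9me2 fed 9.79% and in H3K9me2 starved 0%. With a fold of at least 4 (54 promoters) it was 85.2% in GR starved, 22.2% in H3K9me2 fed, and 0% in H3K9me1 fed, H3K9me1 starved and H3K9me2 starved, while the GRE-like share was 1.85%, the NRF1 share 1.85% and the CpG island-like share 38.9%. With 50% of the shorter peak covered, the shares were 55.5% in GR starved, 18.8% in LSD1 starved, 19.3% in H3K9me2 fed and 0% in H3K9me2 starved. With the window to 1 kb downstream GR starved was 60.9%. The GRE-like share was 0% with no mismatch and 2.64% with 2. Beyond what each setting builds in (fewer or other peaks), the cause was not tested. The shares in LSD1-shared promoters under the same settings were added after seeing the data. No paired analysis was possible because each group held 1 library. Depth is unknown, so a peak that is not listed cannot be read as absent binding.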
